A study of Mus musculus with 13 samples.

Results

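PERK is a kinase of the endoplasmic reticulum (ER) membrane, and the levels compared here are those of ribosome footprints in mouse embryonic fibroblasts (MEFs) with and without it after 1 h and 2 h of ER stress. The libraries used were PERK WT MEFs treated with thapsigargin (Tg) for 1 h, PERK WT MEFs treated for 2 h, and the PERK -/- MEFs (PERK-null) of the same times, 1 library for each, or 4 of the 13 libraries of the series. Tg blocks SERCA, the pump that fills the ER with calcium. The untreated control of each genotype is given beside them. The genes compared were the 10432 of the 22406 listed symbols with a mean of at least 2 TPM (a share of the library's footprints per coding length) over the 10 MEF libraries. All cells were trypsinized and frozen with no cycloheximide, the drug often used to hold ribosomes in place. The labels give neither the age, sex or strain of the embryos nor whether a genotype is more than 1 line, so everything that separates the lines besides PERK cannot be told apart from PERK.

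When unfolded proteins accumulate in the ER, PERK phosphorylates eIF2α, which lowers initiation on most mRNAs and favours the coding sequence of a few, such as that of the transcription factor ATF4. ATF4 and its target CHOP (Ddit3) raise genes of amino acid supply, tRNA charging and, through GADD34 (Ppp1r15a), of eIF2α dephosphorylation. IRE1, which splices Xbp1 mRNA, and ATF6 form the other arms of the response and raise ER chaperones. Footprint levels are relative: a gene that holds its ribosomes while most lose theirs gains TPM, so levels in absolute terms were not measured.

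The WT libraries were the shallower pair, with 3609292 expected counts at 1 h and 2525029 at 2 h against 10011722 and 14799515 in PERK-null MEFs. A count of 3, used as the detection limit, was equal to 0.831 and 1.19 CPM, the counts scaled by library total, in WT and to 0.3 and 0.203 in PERK-null MEFs, and the median expressed gene had 99, 70, 278 and 396.5 counts in these libraries. No condition was replicated. A pair of call rules was therefore used, and neither measures the spread between cultures. The fold rule takes genes at least 2-fold apart the same way at 1 h and at 2 h, with TPM under 4 raised to 4. The test is edgeR's quasi-likelihood test on rounded expected counts of the 10 MEF libraries, with 1 h and 2 h as the 2 libraries of the early stage, 5 h and 8 h as those of the late stage, 4 residual degrees of freedom and Benjamini-Hochberg adjusted p under 0.05 as the call. Its log2 differences are given with their standard error (SE).

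Of the 14 fibroblast markers 13 were expressed, and their summed level was 6013 TPM (WT 1 h), 5988 (WT 2 h), 5646 (PERK-null 1 h) and 5016 (PERK-null 2 h). Of the epithelial markers 3 of 10 were expressed, of the endothelial 2 of 7, of the neural 3 of 8 and of the leukocyte markers 1 of 8. Their summed levels at 1 h and 2 h were 27.8 and 39.5 TPM in WT against 43.4 and 37.9 in PERK-null MEFs for the epithelial list, 36.6 and 44.4 against 18.8 and 14.7 for the endothelial, 67.6 and 100.6 against 62.0 and 61.7 for the neural, and 5.01 and 6.84 against 4.30 and 6.22 for the leukocyte list. By edgeR 1 endothelial and 1 neural marker was called in each direction and 0 leukocyte markers (0 at an unadjusted p under 0.05 and 0 by DESeq2). The single endothelial member lower by both rules was Flt1, a VEGF receptor, with 35.2 and 42.3 TPM in WT and 13.7 and 11.8 in PERK-null MEFs (adjusted p = 0.000525). Map2, a microtubule-associated protein of neurons, was the neural member higher by both rules (10.2 and 2.40 TPM in WT, 39.4 and 34.3 in PERK-null MEFs, adjusted p = 0.00227). Both differences were also present in the controls, at 64.1 against 14.0 TPM for Flt1 and 6.08 against 41.1 for Map2.

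Eif2ak3, which encodes PERK (chr6:70844515-70905245, mm10), had 52 and 48 counts in WT and 90 and 113 in PERK-null MEFs at 1 h and 2 h. Per library total these were lower in PERK-null MEFs (log2 difference −0.99 ± 0.26, adjusted p = 0.0197). With 1 early library left out it was called without WT 1 h but not without WT 2 h (−0.80, edgeR adjusted p = 0.124), PERK-null 1 h (0.055) or PERK-null 2 h (0.127). The TPM values of 8.49 and 6.2 in WT and 7.32 and 5.21 in PERK-null MEFs did not show it to the same degree, as TPM and counts of this gene were more than 0.5 apart on the log2 scale. The sources used here do not say which exons were deleted, so reads outside the deleted stretch check nothing. The lines differed in the Y-linked genes too: Eif2s3y, a subunit gene of eIF2, had 54.5 and 47.6 TPM in WT and no count in PERK-null MEFs.

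The WT 1 h library stood apart. Genes at 20 TPM or more in the PERK-null line and at most 1 in 20 of that level in the other WT libraries were sought in each WT library. There were 6 such genes for WT 1 h, and their level there was 0.135 to 0.296 of that in PERK-null MEFs (0.283 for their sum). No gene qualified for another WT library. The rule then asks for a low level in WT 1 h too, so these 6 genes could not qualify there. That result therefore shows nothing about the other WT libraries. In PERK-null libraries the highest ratio for genes of the WT line was 0.0666 by this rule. It was 0.121 with limits of 10 TPM and 1 in 10. The 6 were Rpl34-ps1, Gm4737, Stmn2, Coch, Hoxd13 and Cxcl5. Stmn2, which binds tubulin, had 3.66, 48.9 and 1.63 TPM in WT (control, 1 h, 2 h) and 154, 159 and 164 in PERK-null MEFs. Whether cells or RNA of the PERK-null line entered this library was not tested. Of 11 genes of the WT line, 10 were lower in WT 1 h than in the other WT libraries (median log2 −0.48), while 8 were lower in the WT control (median −0.74). Counts are therefore also given for 2 h alone or without WT 1 h.

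**Figure D1:**
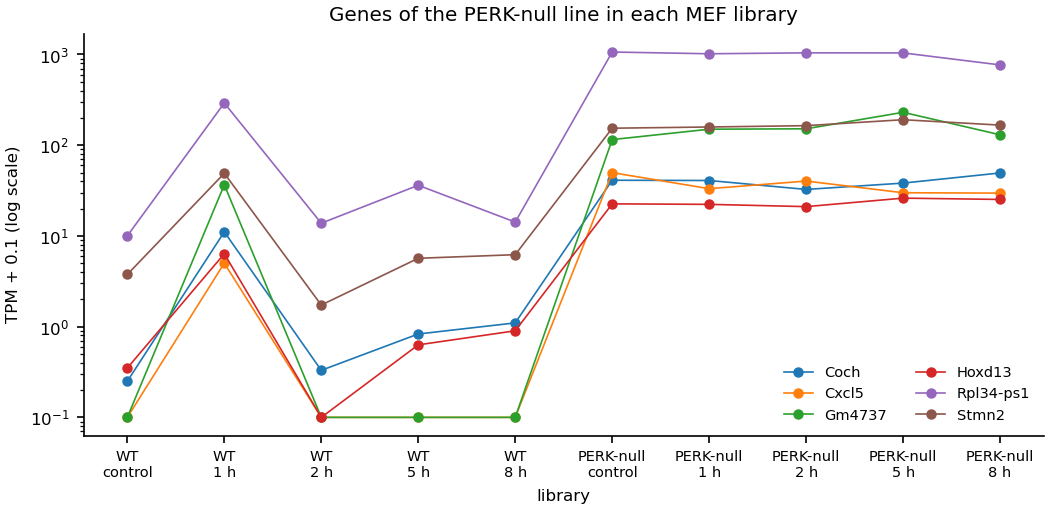
TPM (log scale, 0.1 added) of the 6 genes of the PERK-null line in each of the 10 MEF libraries, 1 point per library. In WT 1 h all 6 lie above their level in the other WT libraries, with Rpl34-ps1 at 292 TPM against 13.7 at 2 h, and below their level in PERK-null MEFs.

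Over all genes, the fold rule called 569 (5.45%), of which 208 (1.99%) were higher and 361 (3.46%) lower in PERK-null MEFs. The test called 2730 (26.2%), 1405 of them higher (13.5%) and 1325 lower (12.7%), and both rules together called 516 (4.95%), of which 1.82% of all genes were higher and 3.12% lower. The counts grew from 1 h to 2 h. At least 2-fold higher genes numbered 364 at 1 h and 663 at 2 h, and lower genes 557 and 1039. Of the genes called by the fold rule, 73.1% of the higher and 67.9% of the lower ones were further apart at 2 h. Only 4 of 573 genes that were 2-fold apart at both times were so in opposite directions. The test called 3.39% of all genes in the untreated lines, 2.02% higher and 1.37% lower in PERK-null MEFs. In TPM, 630 untreated genes were at least 2-fold higher in the PERK-null line and 205 lower, and 41.4% of the higher and 20.2% of the lower early genes had the same 2-fold difference there. A contrast of the early difference with that of the controls (each control 1 library) called 367 genes (3.52%), with 215 above it (2.06%) and 152 below (1.46%). A gene that this contrast did not call is not thereby shown to be as far apart in the controls. The early test rested on all libraries: it called 2190 genes without WT 1 h, 1292 without WT 2 h, 1533 without PERK-null 1 h and 825 without PERK-null 2 h.

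**Figure D2:**
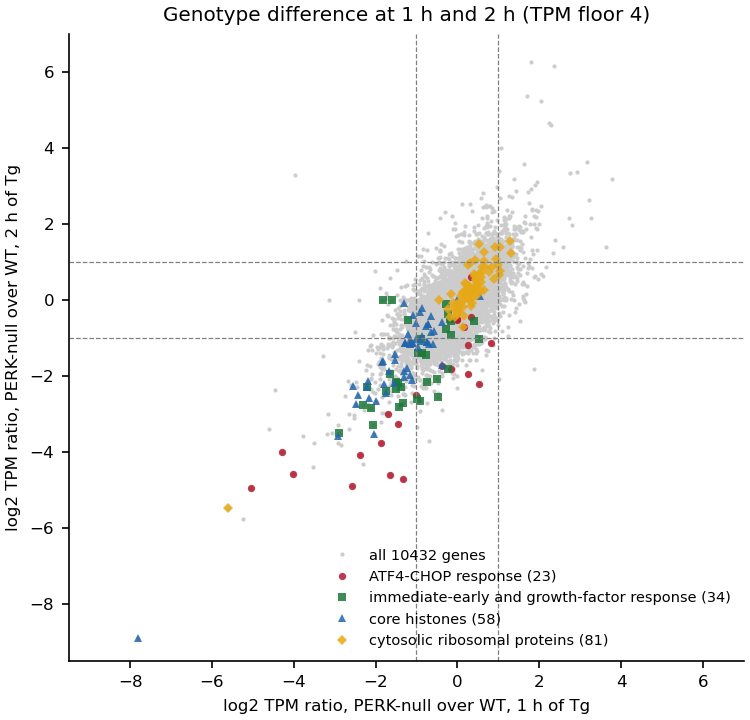
Log2 TPM ratio of PERK-null over WT MEFs (values under 4 TPM raised to 4) at 1 h (x) and 2 h (y) for 10432 genes, with dashed lines at 2-fold. The ATF4-CHOP genes (red), the immediate-early genes (green) and the core histones (blue) lie mostly in the lower left, and most ribosomal protein genes (yellow) to the upper right of the origin.

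The genes of the ATF4-CHOP response formed the list with the largest median difference at 2 h of all those described. Of the 23 members, all expressed, 13 were lower in PERK-null MEFs and 0 higher by edgeR, and 11 were lower by the fold rule. At an unadjusted p under 0.05 edgeR gave 16 lower and 1 higher, and DESeq2 gave 14 lower and 0 higher. The median log2 ratio was 0.17 in the controls, −0.38 at 1 h and −2.21 at 2 h, when the median of all genes was 0.08, 0 and −0.01. Summed over the list, untreated WT MEFs had 448 TPM, those at 1 h 1542 and those at 2 h 3156, and PERK-null MEFs had 706, 508 and 508. At 2 h alone 17 members were at least 2-fold lower. The test called 7 members lower without PERK-null 2 h, without WT 2 h 8, without PERK-null 1 h 9 and without WT 1 h 17 lower and 1 higher.

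Atf4 (chr15:80255184-80257541) had 34.5, 487 and 551 TPM in WT MEFs (control, 1 h and 2 h) and 41.4, 25.1 and 34.2 in PERK-null MEFs. The controls were alike in level, and the early log2 difference was −4.06 ± 0.18 (adjusted p = 1.45e-06). The tables count footprints per coding sequence, so an upstream reading frame that overlaps it is not told apart. Ddit3, the gene of CHOP, had 13.8, 272 and 442 TPM in WT and 6.91, 8.28 and 14.2 in PERK-null MEFs. It was 32.8-fold higher in WT at 1 h and 31.2-fold at 2 h (log2 difference −4.87 ± 0.29, adjusted p = 1.33e-05). Ppp1r15a (chr7:45522916-45526268), the stress-induced subunit that directs a phosphatase to eIF2α, had 7.01, 98.4 and 98.1 TPM in WT and 4.82, 6.10 and 4.09 in PERK-null MEFs (log2 difference −4.24 ± 0.18, adjusted p = 1.45e-06). In WT MEFs Atf4 and Ppp1r15a were at 1 h already near their 2 h level, whereas the other members named next differed more at 2 h.

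Trib3, a pseudokinase induced by ATF4 and CHOP, had 10.1 TPM at 1 h and 105 at 2 h in WT and 3.16 and 2.07 in PERK-null MEFs (log2 difference −4.37 ± 0.86, adjusted p = 0.00589). Chac1, which degrades glutathione, had 72.2 and 231 TPM in WT and 12.1 and 7.75 in PERK-null MEFs (−3.88 ± 0.71, adjusted p = 0.00426). Atf5, a factor of the same family as ATF4, had 20.9 and 67.3 TPM in WT and lay under the floor of 4 in PERK-null MEFs, with 1.42 and 0.93 TPM from 12 counts in each library (adjusted p = 0.000376). In all 3 the WT level was several times higher at 2 h than at 1 h, while the PERK-null level was lower. Sesn2 and Ddit4 restrain the growth kinase mTORC1. Sesn2 had 15.3 and 54.6 TPM in WT against 4.21 and 2.46 (adjusted p = 0.00153), and Ddit4 had 37.5 and 111 against 11.6 and 13.8 (adjusted p = 0.0025). Gadd45a, a growth arrest gene, had 24.2 and 130 TPM against 7.76 and 5.38 (adjusted p = 0.0126). Herpud1, which serves ER-associated degradation, differed less, and its level in PERK-null MEFs was also above the control. It had 25.6, 108 and 462 TPM in WT and 36.5, 53.4 and 80.8 in PERK-null MEFs (−2.00 ± 0.50, adjusted p = 0.0154). Vegfa, the angiogenic growth factor, had 87.6 and 163 TPM in WT and 32.0 and 16.9 in PERK-null MEFs (adjusted p = 0.000796), and its TPM and counts were more than 0.5 apart on the log2 scale. By DESeq2 the difference of Vegfa was −2.07 in early stress and −0.82 in the contrast with the controls (adjusted p = 0.295). Without WT 2 h the difference of Herpud1 was −0.62 (edgeR adjusted p = 0.143), that of Gadd45a −1.87 (0.192) and that of Trib3 −1.96 (0.0673), and none of these was called. Without PERK-null 2 h these 3 and Chac1 were not called (adjusted p between 0.0696 and 0.121), and without PERK-null 1 h Herpud1 (0.118) and Gadd45a (0.0691) were not.

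**Figure D3:**
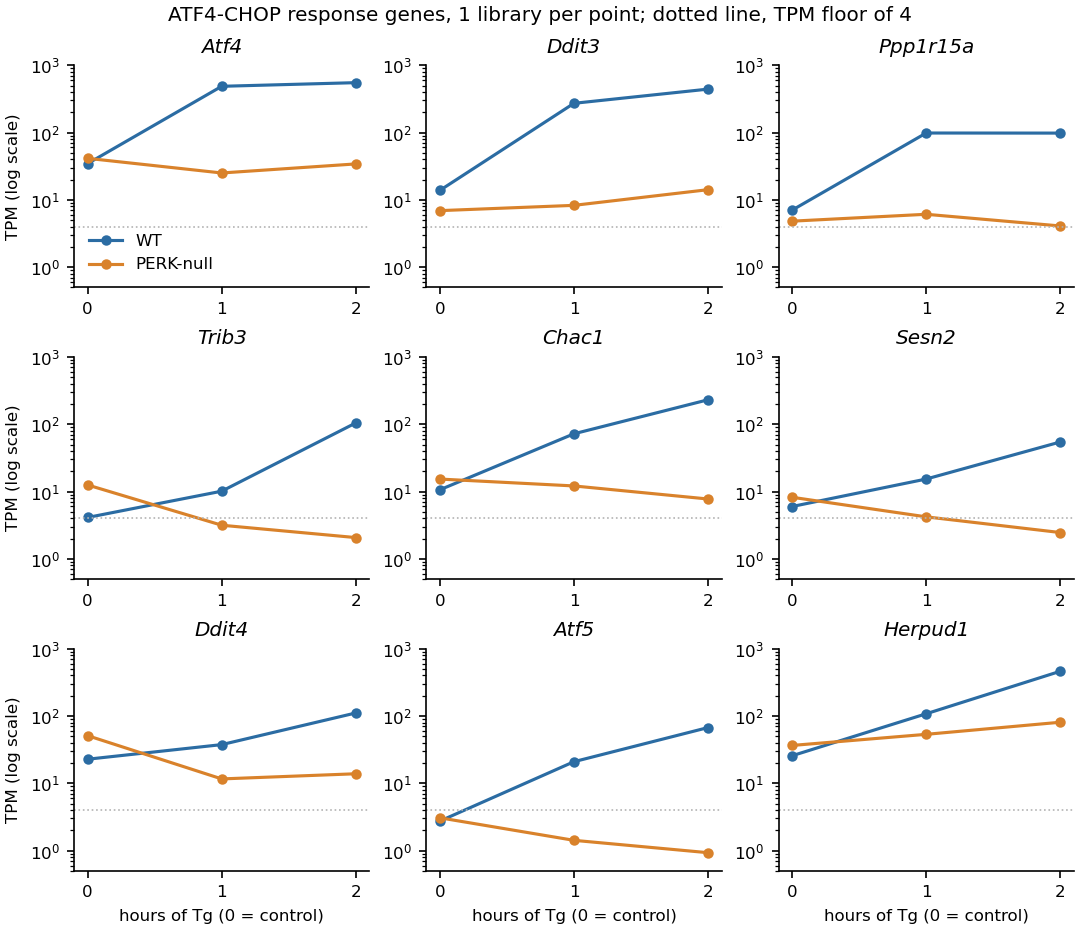
TPM (log scale) of 9 members of the ATF4-CHOP list in WT (blue) and PERK-null (orange) MEFs at 0 (control), 1 and 2 h of Tg, 1 library per point, with the floor of 4 TPM dotted. The WT line of Atf4 goes from 34.5 to 487 and 551 TPM and that of Chac1 from 10.6 to 72.2 and 231, while the PERK-null lines stay flat or go down except for Ddit3 and Herpud1.

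The promoters of some of these genes hold the composite element that ATF4 binds with a C/EBP partner, spelled TGATGNAA and searched on both strands of RefSeq windows of GRCm38.p6 from 250 bases before to 50 after the transcription start. It was present in 3.97% of 32851 such windows and in 7 of the 22 ATF4-CHOP genes with a window (31.8%). Of these 7, Trib3, Chac1 and Herpud1 were called lower in early stress by edgeR, and Atf3, Nupr1, Vldlr and Jdp2 were not. Beside Chac1 and Herpud1 it stood before Asns and Slc7a11 (with 2 copies) of the amino acid lists described next. The stretches are shown because their genes were lower in PERK-null MEFs, with the element in capitals. The first 2 and that of Slc7a11 have 100 bases, and that of Asns is limited to 30 because another annotation draws the gene over it. They lie at chr2:119351003-119351102 (plus strand, Chac1), chr8:94386271-94386370 (plus, Herpud1), chr6:7693214-7693243 (minus, Asns) and chr3:50443617-50443716 (minus, Slc7a11).
Chac1: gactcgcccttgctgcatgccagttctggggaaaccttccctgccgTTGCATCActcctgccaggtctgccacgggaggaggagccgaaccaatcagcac
Herpud1: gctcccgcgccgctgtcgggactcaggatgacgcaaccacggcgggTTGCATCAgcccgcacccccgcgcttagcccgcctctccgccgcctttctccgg
Asns: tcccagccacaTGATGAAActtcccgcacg
Slc7a11: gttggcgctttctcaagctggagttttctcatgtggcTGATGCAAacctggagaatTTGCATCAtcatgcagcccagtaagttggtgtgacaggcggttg
A match is a description of letters and not of binding. Atf4, Ddit3 and Ppp1r15a had no match in their windows. The window of Ppp1r15a holds a cAMP response element, TGACGTCA, which 1.79% of all windows hold, at chr7:45526269-45526368 (minus strand).
Ppp1r15a: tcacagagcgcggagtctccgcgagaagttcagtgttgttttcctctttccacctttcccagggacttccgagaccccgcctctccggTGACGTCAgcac
For comparison, the ER stress element of Hspa5, CCAAT and CCACG 9 bases apart, is present in 0.119% of windows and lies at chr2:34772019-34772048 (plus strand).
Hspa5: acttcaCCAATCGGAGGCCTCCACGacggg

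The genes that supply amino acids were lower in PERK-null MEFs mainly at 2 h. Of the enzymes of amino acid synthesis 11 of 19 were lower and 0 higher by edgeR (15 and 0 at an unadjusted p under 0.05, 11 and 0 by DESeq2), with a median log2 ratio of −0.16 in the controls, −0.27 at 1 h and −1.12 at 2 h. The fold rule called 1 of them. Asns, asparagine synthetase, had 67.5, 64.3 and 163 TPM in WT and 44.3, 35.6 and 35.6 in PERK-null MEFs (log2 difference −1.6 ± 0.33, adjusted p = 0.00726). Gpt2, mitochondrial alanine aminotransferase, was the enzyme called by both rules, with 11.3 and 35.1 TPM against 5.27 and 6.44 (adjusted p = 0.0103). Aldh1l2 of mitochondrial folate metabolism had 5.16 and 29.7 TPM against 3.75 and 2.92 (adjusted p = 0.0234), and Cth, which makes cysteine from cystathionine, had 17.3 and 45.0 against 10.1 and 9.22 (adjusted p = 0.0168). At 1 h the genotypes were close in Aldh1l2, and the difference arose with the WT level at 2 h. The number of enzymes called lower was 1 without PERK-null 2 h, 2 without PERK-null 1 h, 3 without WT 2 h and 14 without WT 1 h. Without WT 2 h the difference of Aldh1l2 was −0.54 (edgeR adjusted p = 0.491), that of Gpt2 −1.11 (0.128) and that of Cth −0.81 (0.205), and these 3 were called in none of the fits without 1 early library except that without WT 1 h. Asns was not called without either PERK-null library (0.0566 and 0.071).

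Among amino acid transporters 12 of 17 were lower and 0 higher by edgeR (12 and 1 at an unadjusted p under 0.05, 11 and 1 by DESeq2), with medians of 0 in the controls, −0.24 at 1 h and −1.05 at 2 h. Slc3a2, the shared heavy chain of several exchangers, was the most abundant of those named, with 255, 469 and 965 TPM in WT and 263, 267 and 202 in PERK-null MEFs (log2 difference −1.55 ± 0.34, adjusted p = 0.00891). Slc7a11, its cystine-importing partner, had 3.13 and 20 TPM in WT and 0.77 and 1.18 in PERK-null MEFs (adjusted p = 0.0119). The neutral amino acid carrier Slc1a4 had 23.3 and 69.0 TPM against 12.5 and 9 (adjusted p = 0.00544), and the glycine transporter Slc6a9 had 11.6 and 40.8 against 6.19 and 6.52 (adjusted p = 0.0151). The glutamine carrier Slc1a5 had another course. Its level was 39.0, 27.0 and 19.4 TPM in WT and 33.3, 11.4 and 9.35 in PERK-null MEFs, below the control in both lines and lower in PERK-null MEFs at both times (adjusted p = 0.00294). The count of lower transporters was 4 without PERK-null 2 h, 6 without PERK-null 1 h, 5 without WT 2 h and 10 (1 higher) without WT 1 h. Slc3a2, Slc7a11 and Slc6a9 were called in none of these fits except that without WT 1 h. Without WT 2 h their differences were −0.95 (edgeR adjusted p = 0.0846), −1.18 (0.248) and −0.83 (0.215). Slc1a4 was not called without PERK-null 2 h (0.0732).

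Of the 20 cytosolic aminoacyl-tRNA synthetases, which charge tRNAs, 10 were lower and 1 higher by edgeR, and 0 were called by the fold rule, though 4 were at least 2-fold lower at 2 h. The medians were −0.11, −0.22 and −0.90. Aars had 171 and 320 TPM in WT and 116 and 110 in PERK-null MEFs (log2 difference −1.06 ± 0.23, adjusted p = 0.00817), Lars had 123 and 146 against 62.8 and 61.9 (adjusted p = 0.000549), Yars had 119 and 195 against 88.9 and 78.8 (adjusted p = 0.00947) and Tars had 164 and 276 against 133 and 125 (adjusted p = 0.0242). By DESeq2 the log2 differences of Lars and Tars were −1.07 and −0.73 in early stress. In the contrast with the controls they were −0.32 and −0.20 (DESeq2 adjusted p = 0.412 and 0.757). Of the others, DESeq2 called Aars in that contrast (−1.15, adjusted p = 0.0185) and did not call Yars (−0.87, 0.0639). In all 4 genes the highest TPM value was that of WT 2 h. The lower calls were 2 without PERK-null 2 h, 3 without PERK-null 1 h, 3 without WT 2 h and 14 without WT 1 h. Lars was called in all of these fits. Without WT 2 h Tars (−0.32, edgeR adjusted p = 0.178) and Yars (−0.48, 0.0511) were not called, without PERK-null 1 h Aars (0.055) and Tars (0.102) were not, and without PERK-null 2 h Aars (0.0778), Yars (0.0883) and Tars (0.138) were not.

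**Figure D4:**
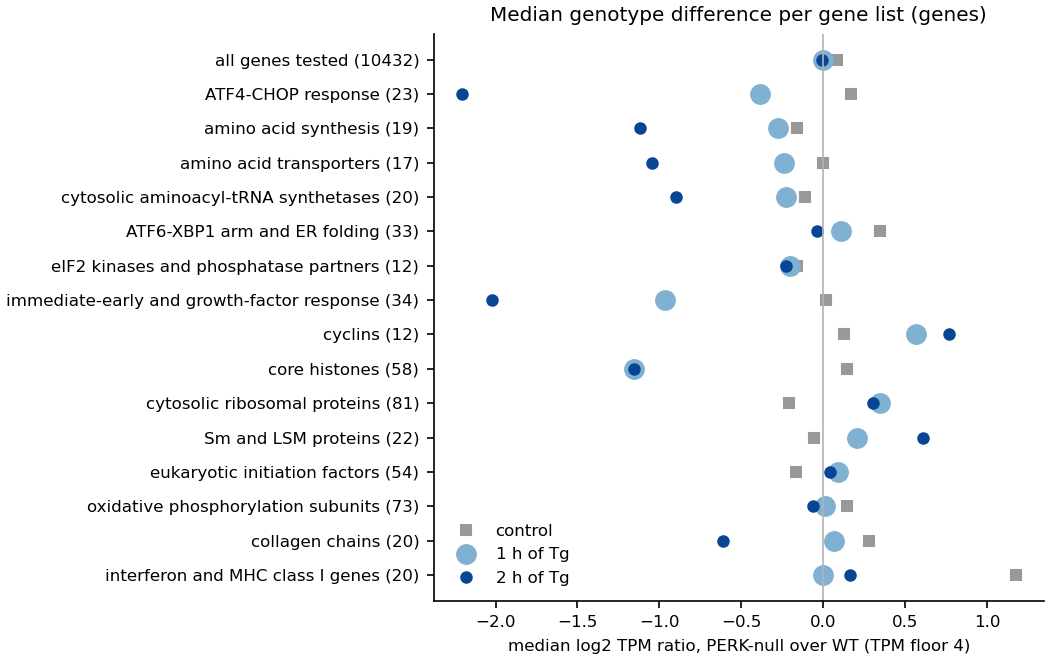
Median log2 TPM ratio of PERK-null over WT MEFs per gene list, with the number of expressed genes in brackets, in the controls (grey squares), at 1 h (large light circles) and at 2 h (small dark circles). The ATF4-CHOP list goes from 0.17 to −0.38 and −2.21, the immediate-early list from 0.02 to −0.97 and −2.02, and the core histones lie at −1.15 at both times.

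The ATF6 and XBP1 targets and ER folding factors were called in both directions. Of 33 members, 6 were higher and 4 lower by edgeR (13.5% and 12.7% of all genes were). The fold rule called 0, though at 2 h alone 6 were at least 2-fold lower and 0 higher. The medians were 0.35, 0.11 and −0.04. Hspa5, the ER chaperone BiP, had 1356, 2624 and 4462 TPM in WT and 1645, 1974 and 2514 in PERK-null MEFs. Its early difference of −0.60 ± 0.21 did not pass the test (adjusted p = 0.062). It passed with the time as a replicate block (−0.57, edgeR adjusted p = 0.00977), without WT 1 h (−0.92, 0.0088) and by DESeq2 (0.0106). Xbp1, the factor spliced by IRE1, had 29.2, 83.5 and 190 TPM in WT and 34.5, 69.5 and 76.7 in PERK-null MEFs (−0.83 ± 0.28, adjusted p = 0.0502). It too passed with the block (−0.75, edgeR adjusted p = 0.0231), without WT 1 h (−1.3, 0.000946) and by DESeq2 (0.0076). In both genes PERK-null MEFs also had a higher level with Tg than without, and the genotypes were further apart at 2 h than at 1 h. Pdia4, a disulfide isomerase, had 308 and 393 TPM against 364 and 404 (adjusted p = 0.351), and Dnajc3, the BiP co-chaperone p58IPK, had 73.9 and 106 against 96.6 and 122 (adjusted p = 0.182). Atf6 itself was lower, with 39.0 and 43.6 TPM against 26.1 and 28.3 (−0.52 ± 0.14, adjusted p = 0.0212). By DESeq2 the difference of Atf6 was −0.53 in early stress and −0.19 in the contrast with the controls (adjusted p = 0.772). The degradation factors went both ways: Syvn1, the ubiquitin ligase Hrd1, was lower with 55.9 and 101 TPM against 37.7 and 43.2 (adjusted p = 0.0153), and Derl2 was higher with 61.3 and 61.8 against 116 and 92.3 (adjusted p = 0.0163). Without WT 1 h the list had 4 members higher and 9 lower, without WT 2 h 4 and 0, without PERK-null 1 h 5 and 2 and without PERK-null 2 h 2 and 0. In these fits Atf6 and Syvn1 were called without WT 1 h alone (−0.45 and −0.43 without WT 2 h, edgeR adjusted p = 0.101 and 0.104), and Derl2 without PERK-null 2 h alone (0.0806 without WT 1 h).

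Among the 12 eIF2 kinases and phosphatase partners, 2 were higher and 4 lower by edgeR (13.5% and 12.7% of all genes were). Ppp1r15a and Eif2ak3 were among those lower. Eif2ak2, the kinase PKR that senses double-stranded RNA, was higher in PERK-null MEFs by both rules, with 23.0, 24.0 and 16.9 TPM in WT and 57.9, 48.9 and 51.9 in PERK-null MEFs (log2 difference 1.34 ± 0.18, adjusted p = 0.00106). That difference was present in the controls, and the contrast with the controls did not call it (adjusted p = 0.768). Ppp1r15b, the constitutive counterpart of Ppp1r15a, was slightly lower (22.4 and 21.8 TPM against 17.0 and 12.6, adjusted p = 0.0382). It was not called with the time as a replicate block (−0.54, edgeR adjusted p = 0.051) or by DESeq2 (0.0539), nor without WT 1 h (0.125), WT 2 h (0.0978) or PERK-null 2 h (−0.37, 0.219).

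The immediate-early and growth-factor response genes, which cells transcribe within minutes of a stimulus, had the second largest median difference at 2 h among the lists drawn. By edgeR 20 of 34 were lower and 0 higher (25 and 0 at an unadjusted p under 0.05, 19 and 0 by DESeq2), the fold rule called 13 lower, and the medians were 0.02, −0.97 and −2.02. Ier2 had 26.0, 73.0 and 80.2 TPM in WT and 24.1, 9.89 and 7.11 in PERK-null MEFs (log2 difference −3.13 ± 0.28, adjusted p = 0.000118). Id3, an inhibitor of basic helix-loop-helix factors, had 171, 721 and 1360 TPM in WT and 293, 276 and 276 in PERK-null MEFs (−1.85 ± 0.25, adjusted p = 0.0011). The AP-1 members Jun and Junb were lower too. Jun had 132 and 109 TPM in WT and 46.5 and 21.3 in PERK-null MEFs (adjusted p = 0.00512), and Junb had 135 and 156 against 50.5 and 22.2 (adjusted p = 0.00303). Myc, a growth regulator, had 263 and 253 TPM against 105 and 38.3 (adjusted p = 0.004), and Ier3 had 461 and 194 against 93.2 and 28.4 (adjusted p = 0.0101). By DESeq2 the log2 difference of Myc was −1.83 in early stress and −0.86 in the contrast with the controls (adjusted p = 0.521). Ctgf, a secreted target of YAP and TGF-β signalling, had 1057, 2818 and 2396 TPM in WT and 444, 995 and 539 in PERK-null MEFs (adjusted p = 0.00382), and Klf2, a zinc finger factor, had 17.4 and 28.7 against 1.76 and 2.13 (adjusted p = 0.00106). Egr1 was lower by the fold rule alone: its WT level of 171 TPM at 1 h and 39.5 at 2 h against 41.1 and 2.55 went with an adjusted p of 0.0897. With the time as a replicate block it was called (−2.77, edgeR adjusted p = 0.000359), and without PERK-null 1 h too (−5.31, 0.0118). In Ier2, Id3 and Junb the PERK-null level with Tg lay below or near that of the control, whereas Ctgf was above its control in both lines. The test called 11 members lower without PERK-null 2 h. Without any other early library 16 to 22 were. Ier3 was not called without WT 1 h (−1.64, edgeR adjusted p = 0.0903) or without PERK-null 2 h (−1.82, 0.0837), nor was Ctgf without the latter (0.0505).

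Core histone genes were lower in PERK-null MEFs across all 4 histone classes. Of 61 listed genes 58 were expressed, and 49 were lower and 0 higher by edgeR (53 and 0 at an unadjusted p under 0.05, 50 and 0 by DESeq2). The fold rule called 33 lower, with medians of 0.15 in the controls and −1.15 at both 1 h and 2 h. Summed over the list, histone footprints made up 47761 TPM in the WT control, 108919 at 1 h and 122379 at 2 h, and 54980, 48967 and 47790 TPM in PERK-null MEFs. The sum was thus 2.22-fold higher in WT at 1 h and 2.56-fold at 2 h, and 0.869 of the PERK-null level in the controls. By class, 15 of 17 H2A, 13 of 16 H2B, 10 of 12 H3 and 11 of 13 H4 genes were lower. Of the class sums, H2A stood at 23638 and 28383 TPM in WT against 9004 and 8012 in PERK-null MEFs, H2B at 32516 and 32953 against 14145 and 14484, H3 at 23965 and 29449 against 10550 and 9882, and H4 at 28799 and 31594 against 15270 and 15411. In each class both WT sums lay above both PERK-null sums at these times, with 2 libraries a side. The share of all genes so placed was not counted. The sums of H2B were 2.30-fold apart at 1 h and 2.28-fold at 2 h and those of H4 1.89-fold and 2.05-fold, while those of H2A went from 2.63-fold to 3.54-fold and those of H3 from 2.27-fold to 2.98-fold.

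Among single histone genes, Hist1h4a (chr13:23760692-23761230) had 1166, 3330 and 3797 TPM in WT and 1247, 599 and 563 in PERK-null MEFs (log2 difference −2.57 ± 0.13, adjusted p = 4.29e-06). Hist3h2a, a gene outside the large cluster, had 390, 1751 and 1721 TPM in WT and 423, 386 and 391 in PERK-null MEFs (adjusted p = 4.74e-05). Hist1h3c had 1872, 6629 and 6994 against 1872, 2095 and 1922 (adjusted p = 5.42e-05), and Hist1h2ae had 570, 1644 and 2211 against 959, 566 and 482 (adjusted p = 6.54e-05). Histone genes are near-identical copies, and 12 of the expressed ones had values equal to those of another gene in all 10 libraries, so single genes are uncertain and class sums are given above. Hist1h2ag, Hist1h2ap and Hist1h2ao are 3 such genes, each with 70.3, 628 and 713 TPM in WT and 678, 260 and 325 in PERK-null MEFs. Hist1h2bl had 900 and 1923 TPM in WT and 0.04 and 0 in PERK-null MEFs, and 79.9% of its 28-base windows are also in Hist1h2bq. By DESeq2 the log2 difference of Hist1h2bl was −14.85 in early stress and −2.32 in the contrast with the controls (adjusted p = 0.633). With PERK-null values of 0.04 and 0 TPM these sizes are uncertain. The uncalled contrast does not show how much of the difference was present without Tg. The median GC content of the histone coding sequences was 66.0% against 52.8% over all genes. With the trend of the ratio on GC content removed, 16 in place of 33 were lower by the fold rule, and the medians were −0.79 and −0.49. The lower calls of the test were 29 without PERK-null 1 h, 31 without PERK-null 2 h, 36 without WT 2 h and 41 without WT 1 h.

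Ribosomal protein genes had the opposite direction. Of 81 expressed genes 33 were higher in PERK-null MEFs and 1 lower by edgeR (3 and 1 by the fold rule), and the medians were −0.21 in the controls, 0.35 at 1 h and 0.30 at 2 h. Their summed level was 155318, 123275 and 129178 TPM in WT and 132340, 158626 and 163645 in PERK-null MEFs, so the order of the lines in the controls was the reverse of that with Tg. Rps20 had 1010, 546 and 488 TPM in WT and 930, 1132 and 1286 in PERK-null MEFs (log2 difference 1.28 ± 0.15, adjusted p = 0.000525). Rps27 had 573, 276 and 318 TPM against 510, 688 and 744 (adjusted p = 0.00108), and Rpl22l1, a paralogue of Rpl22, had 288, 239 and 214 against 351, 587 and 620 (adjusted p = 0.00276). All 3 were below the control in WT and above it in PERK-null MEFs. The member called lower was Rpl34, with 537 and 1326 TPM in WT and 11 and 29.9 in PERK-null MEFs. Its retrocopy Rpl34-ps1, which shares 82.9% of its 28-base windows, had 292 and 13.7 TPM in WT and 1018 and 1042 in PERK-null MEFs. The sum of both was 829 and 1340 TPM against 1029 and 1072, and since reads of near-identical copies are divided between them, neither value stands alone. The number of higher calls depended on single libraries and was 17 without WT 1 h, 10 without WT 2 h, 20 without PERK-null 1 h and 7 without PERK-null 2 h.

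Sm and LSM proteins, the rings that bind small nuclear and decaying RNAs, were more often higher than lower. Of 22 expressed, 11 were higher and 2 lower by edgeR, with medians of −0.06, 0.20 and 0.61. Lsm12 had 144, 64.5 and 70.9 TPM in WT and 111, 149 and 166 in PERK-null MEFs (log2 difference 1.28 ± 0.15, adjusted p = 0.000599), and Snrpd1, a core Sm protein, had 561, 364 and 266 against 468, 654 and 736 (adjusted p = 0.00163). The initiation factors were called in both directions. Of 54 expressed, 10 were higher and 7 lower by edgeR (13.5% and 12.7% of all genes were), the fold rule called 2 in each direction, and the medians were −0.17, 0.09 and 0.04. Eif1ax, which helps scan for the start codon, had 430, 277 and 213 TPM in WT and 538, 640 and 782 in PERK-null MEFs (1.58 ± 0.19, adjusted p = 0.000549). For the Sm and LSM list the higher and lower calls were 2 and 1 without PERK-null 2 h, 3 and 2 without WT 2 h, 8 and 0 without PERK-null 1 h and 11 and 3 without WT 1 h. For the initiation factors they were 2 and 3, 4 and 5, 4 and 5, and 7 and 8 in the same order, with the lower calls the more numerous in each, and with the GC trend removed the fold rule called 0 higher and 3 lower.

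The cyclins, which drive the cell cycle, were split. By edgeR 6 of 12 were higher and 1 lower, with medians of 0.12, 0.56 and 0.77. The E cyclins of the entry into S phase were higher: Ccne2 had 55.5, 29.3 and 26.6 TPM in WT and 47.2, 76.5 and 82.0 in PERK-null MEFs (log2 difference 1.55 ± 0.16, adjusted p = 0.000306), and Ccne1 had 24.0, 11.8 and 14.1 against 22, 32.1 and 32.7 (adjusted p = 0.00605). Ccng1, a p53 target, had 15.3 and 9.22 TPM in WT and 37.0 and 42.7 in PERK-null MEFs (adjusted p = 0.00347). Ccnd1, cyclin D1, was the member called lower, with 163, 116 and 86.2 TPM in WT and 60.1, 53.4 and 37.3 in PERK-null MEFs (−1.12 ± 0.22, adjusted p = 0.00525). Its log2 TPM ratio was already −1.44 in the controls, whereas the lines were close in Ccne1 and Ccne2 there. The calls were 4 higher and 0 lower without PERK-null 2 h, and 7 and 2 without WT 1 h. Ccnd1 (edgeR adjusted p = 0.063) and Ccne1 (0.053) were not called without PERK-null 2 h.

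The genes with the largest differences between the lines were mostly apart without Tg as well. Gjb2, a gap junction connexin (chr14:57098600-57104702), had 15.4, 9.85 and 11.7 TPM in WT and 50.4, 134 and 106 in PERK-null MEFs (log2 difference 3.54 ± 0.46, adjusted p = 0.000829). Its log2 TPM ratio was 1.71 in the controls, 3.77 at 1 h and 3.18 at 2 h. The contrast with the controls did not call it by edgeR (adjusted p = 0.133) but did by DESeq2 (1.95, adjusted p = 0.0457). Sfn, the 14-3-3 protein sigma, had 1.06, 6.55 and 1.66 TPM against 52.3, 58.7 and 49.4 (adjusted p = 0.000372), Anxa8, an annexin, had 2.61, 30.9 and 6.11 against 140, 145 and 154 (adjusted p = 0.0013), and Smoc2, a matricellular protein, had 6.84, 19.7 and 3.48 against 122, 95.9 and 97.7 (adjusted p = 0.00137). In these 3 WT 1 h was above the other WT libraries. The chemokines Cxcl5 and Ppbp were at 4.91 and 5.02 TPM in WT 1 h and at 0 in WT 2 h, with 33.1 and 38.0 TPM in PERK-null MEFs at 1 h and 40.1 and 41.5 at 2 h. LOC102637947 had 4.69 and 0 against 45.4 and 17.9 TPM. Gm4737 had 36.5 and 0 TPM in WT and 150 and 152 in PERK-null MEFs, but 93.7% of its 28-base windows are also in Ahcy. DESeq2 did not call Rpl34-ps1, Gm4737, Stmn2 and Hoxd13, all of them genes that marked the WT 1 h library. Without PERK-null 2 h edgeR did not call Rpl34-ps1, Gm4737, Stmn2, Cxcl5 and Ppbp (adjusted p between 0.0527 and 0.116), and LOC102637947 was not called without WT 2 h (0.104) or PERK-null 1 h (0.107). In the other direction, Nnat, an imprinted proteolipid gene (chr2:157560078-157562522), had 168, 146 and 233 TPM in WT and 30.2, 6 and 22 in PERK-null MEFs (−3.70 ± 0.41, adjusted p = 0.000448), and Alx1, a homeobox factor of the embryonic face (chr10:102998707-103030215), had 48.5, 46.3 and 84.1 against 2.62, 1.12 and 2.33 (−5.08 ± 0.37, adjusted p = 4.17e-05). Gm7429 had 152 and 218 TPM against 0 and 4.03, and 73.8% of its windows are shared with Gm12191.

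Matrix genes were called in both directions, beside 13.5% of all genes called higher and 12.7% lower in early stress. The medians of their lists had the sign of the controls at 1 h and the opposite sign at 2 h. With the GC trend removed the 2 h medians were −0.062 for collagen chains and −0.011 for secreted matrix proteins. Of 20 expressed collagen chains 4 were higher and 8 lower by edgeR in early stress (1 and 6 by the fold rule), against 6 higher and 2 lower in the controls. Their median log2 ratio went from 0.28 in the controls to 0.07 at 1 h and −0.61 at 2 h, and their summed level was 3343, 2460 and 2498 TPM in WT and 4454, 2235 and 1645 in PERK-null MEFs. Of 32 secreted matrix proteins 4 were higher and 8 lower, with medians of 0.29, 0.12 and −0.11 and sums of 12111, 10052 and 10291 TPM in WT against 13493, 10796 and 8588. Col4a1 and Col4a2, the basement membrane chains, were lower: Col4a1 had 217, 121 and 120 TPM in WT and 59.2, 37.8 and 28.2 in PERK-null MEFs (log2 difference −1.83 ± 0.15, adjusted p = 5.46e-05), and Col4a2 had 100, 96.0 and 77.6 against 35.6, 21.7 and 15.2 (adjusted p = 5.46e-05). Tnc, tenascin C, had 474, 361 and 437 against 183, 134 and 93.5 (adjusted p = 0.000465). Col6a2 was higher, with 13.4, 10.7 and 7.85 TPM in WT and 48.4, 25.5 and 19.4 in PERK-null MEFs (adjusted p = 0.00136). Col4a1, Col4a2, Tnc and Col6a2 were each apart in the same direction in the controls. Of the 13 fibroblast markers, 3 were higher and 2 lower, and of the 3 expressed epithelial markers 1 was higher.

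Interferon and MHC class I genes were apart most in the untreated lines. Of 20 expressed, 7 were higher in the PERK-null control by edgeR (2.02% of all genes). In early stress 4 were higher and 2 lower (13.5% and 12.7% of all genes were). The median went from 1.18 in the controls to 0 at 1 h and 0.16 at 2 h. Ifitm3, which restricts virus entry, had 210, 263 and 117 TPM in WT and 842, 610 and 605 in PERK-null MEFs (adjusted p = 0.00229). Isg15, a ubiquitin-like modifier, had 10.9, 35.8 and 24.8 TPM in WT and 171, 52.3 and 57.6 in PERK-null MEFs (log2 difference 0.89 ± 0.25, adjusted p = 0.0256), above the control with Tg in WT and below it in PERK-null MEFs. It was called without WT 1 h alone among the fits with 1 early library left out (adjusted p between 0.059 and 0.159 in the others). Of 14 expressed Hox genes 3 were higher and 3 lower in early stress (the same shares of all genes apply) and 5 and 0 in the controls. Among those higher in early stress, Hoxa10 had 1.17, 20.9 and 3.72 TPM in WT and 50.7, 42.2 and 42.1 in PERK-null MEFs (adjusted p = 0.0234). Hoxd13 had 0.25, 6.26 and 0 against 22.5, 22.2 and 20.9 (adjusted p = 0.0131), and both genes were high in WT 1 h among WT libraries. Neither was called without PERK-null 1 h (edgeR adjusted p = 0.0738 and 0.0618) or PERK-null 2 h (0.118 and 0.081), nor was Hoxa10 without WT 2 h (1.05, 0.12). Of 11 imprinted growth genes 3 were lower and 0 higher by edgeR (4 and 0 at an unadjusted p under 0.05, 4 and 0 by DESeq2), with 1 lower in the controls and medians of −0.14, 0 and −0.51. Cdkn1c, a cyclin kinase inhibitor, had 64.1, 42.4 and 93.8 TPM against 15, 8.59 and 4.73 (adjusted p = 0.000647), apart in the controls as well. Igf2, a growth factor, had 28.3, 50 and 58.8 against 22.3, 11.5 and 11.6 (adjusted p = 0.00289), close in the controls and apart with Tg.

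The remaining lists had calls in both directions or few calls. Their counts stand beside the 13.5% of all genes called higher and the 12.7% called lower. Of 73 oxidative phosphorylation subunits 15 were higher and 10 lower by edgeR, with medians of 0.15, 0.01 and −0.06. Uqcr11 of complex III was the member called by both rules, with 331, 657 and 670 TPM in WT and 656, 325 and 210 in PERK-null MEFs (log2 difference −1.27 ± 0.21, adjusted p = 0.00269). Higher and lower calls numbered 8 and 3 of 36 proteasome subunits, 6 and 2 of 18 cytosolic heat shock proteins, 3 and 2 of 17 NRF2 and antioxidant genes, 1 and 4 of 14 genes of the p53 pathway and INK4 inhibitors, 3 and 2 of 11 contractile and myofibroblast genes, 2 and 2 of 24 genes of sterol synthesis, 2 and 2 of 9 integrin subunits and 1 and 0 of 7 targets of IRE1-dependent decay. Without PERK-null 2 h fewer were called, with 2 and 4 oxidative phosphorylation subunits, 1 and 1 proteasome subunits and 2 and 3 secreted matrix proteins. Of 1678 genes whose protein has a hydrophobic N terminus, a list added after seeing the data, 265 were higher and 177 lower. That is 15.8% and 10.5% of the list, against 13.5% and 12.7% of all genes.

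The contrast with the controls asks which early differences were not those of the untreated lines, whether larger or smaller. A gene lower beyond the controls can therefore still be higher in PERK-null MEFs, as Isg15 was. Of the ATF4-CHOP list 7 of 23 were lower beyond the controls and 0 higher (14 and 0 at an unadjusted p under 0.05, 9 and 0 by DESeq2). Of the immediate-early genes 6 of 34 were lower, of the core histones 21 of 58 (identical copies counted separately), and 10 of 81 ribosomal proteins were higher. Of all genes 2.06% were higher and 1.46% lower. Of the 19 synthesis enzymes, 17 transporters and 20 synthetases edgeR called 0. At an unadjusted p under 0.05 these had 4, 6 and 2 lower and 0, 1 and 1 higher, and DESeq2 called 1 lower in each. The size for Atf4 was −4.18 ± 0.30 on the log2 scale (adjusted p = 0.00016) and that for Ppp1r15a −3.55 ± 0.33 (adjusted p = 0.00107). Ddit3, whose WT control was above that of PERK-null MEFs, had −3.59 ± 0.69 (adjusted p = 0.0272). Trib3 (−5.83, adjusted p = 0.0563) and Chac1 (adjusted p = 0.0865) did not pass, though Trib3 did with the time as a replicate block (−5.48, edgeR adjusted p = 0.0288), without WT 1 h (−6.75, 0.00793) and by DESeq2 (0.0257). The calls of this contrast fell most when a PERK-null library was left out. Leaving out any early library also removes a residual degree of freedom, so a lost call does not show a smaller difference. Without PERK-null 2 h the contrast called 9 genes in all, among them 2 of the ATF4-CHOP list and 5 core histones, and without PERK-null 1 h it called 92, among them 2 ATF4-CHOP genes, 3 immediate-early genes, 13 core histones and 1 ribosomal protein. Without WT 1 h these lists had 13, 6, 22 and 5 calls, and without WT 2 h 7, 3, 17 and 3. DESeq2 called 38 core histones lower and 36 ribosomal proteins higher.

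The small GTPase genes Rab10 and Rala were among the genes furthest above the controls in PERK-null MEFs. Rab10 had 293, 121 and 113 TPM in WT and 224, 292 and 319 in PERK-null MEFs (beyond the controls 1.97 ± 0.23, edgeR adjusted p = 0.00613). Rala had 111, 29.6 and 27.4 TPM against 89.0, 79.0 and 99.8 (beyond the controls 2.16 ± 0.34, edgeR adjusted p = 0.017). For both, the controls were close and WT fell below its control. Without the PERK-null 2 h library these calls were lost, with edgeR adjusted p = 0.0507 for Rab10 (1.85) and 0.0882 for Rala (1.92). Fgfr1op2 had 31.7, 16.3 and 13.0 TPM against 31.9, 59.5 and 59.9, and Rwdd1 had 247, 98.2 and 80.5 against 205, 220 and 288. For 1810022K09Rik, Lyar, Mpp6, Gm32886 and Ube2q2 the PERK-null control was below that of WT and the order was the reverse with Tg, with 148 against 90.1 TPM in the controls and 77.3 against 255 at 2 h for 1810022K09Rik. Lyar, a nucleolar factor, had 193, 90.3 and 95.1 TPM in WT and 96.9, 155 and 181 in PERK-null MEFs. Mpp6 had 26.4, 9.43 and 11.4 against 12.9, 22.9 and 16.2, Gm32886 had 225, 122 and 72.8 against 150, 232 and 274, and Ube2q2 had 18.5, 8.87 and 9.16 against 7.19, 14.1 and 13.9, the last with no early call by edgeR (adjusted p = 0.189). Lower beyond the controls were Gm42355, with 44.1, 156 and 54.0 TPM in WT and 75.4, 24.4 and 12.3 in PERK-null MEFs, and Pkd1, a large membrane protein of low level, with 2.81, 8.85 and 6.17 TPM against 4.82, 1.92 and 1.43.

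The difference between the genotypes went with the GC content of the coding sequence. The median was 48.1% in genes higher by the fold rule and 59.0% in those lower, 44.8% and 60.1% in genes above and below the controls, and 52.8% in all genes. In the decile of genes with the lowest GC content (34.2% to 44.3%) the median log2 ratio was −0.01 in the controls, 0.26 at 1 h and 0.39 at 2 h, and in the highest decile (60.5% to 76.8%) it was 0.16, −0.27 and −0.62. The test called 32.9% of the lowest decile higher and 1.9% lower, and 2.00% of the highest decile higher and 33.7% lower. With this trend removed the fold rule called 386 genes, 154 higher and 232 lower. It called 10 of the ATF4-CHOP genes lower (11 without the removal) and 11 of 32 immediate-early genes, and the medians of the ribosomal proteins were 0.33 and 0.38. The cause of this trend was not tested.

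**Figure D5:**
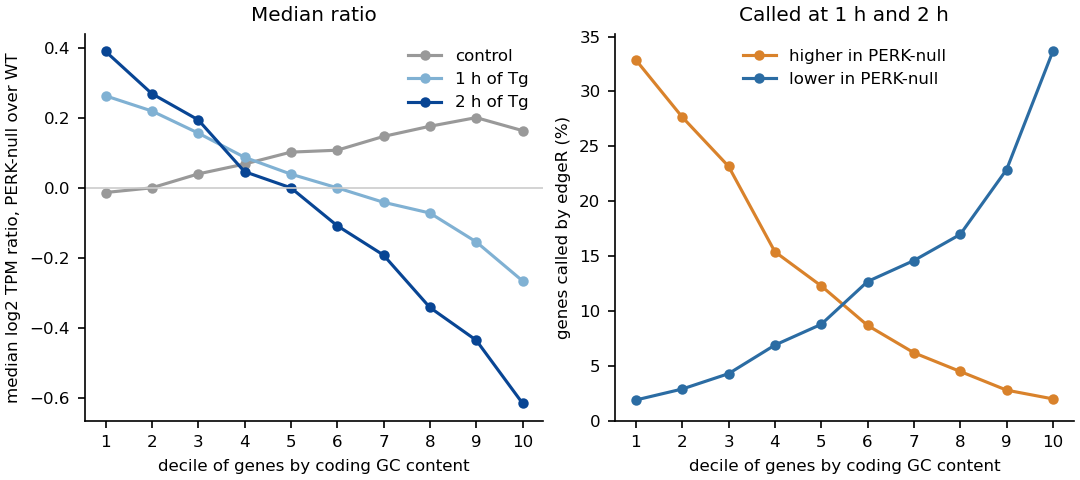
Genes in deciles by GC content of the coding sequence, from the lowest (1) to the highest (10). Left, the median log2 TPM ratio of PERK-null over WT MEFs, which goes from 0.39 to −0.62 at 2 h. Right, the percentage of each decile that edgeR called higher (orange, 32.9% to 2.00%) or lower (blue, 1.9% to 33.7%) in PERK-null MEFs.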

How the data were processed

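Ribosome footprints of PERK WT and PERK -/- MEFs were analysed, 1 library for each genotype and time, with groups taken from the labels. The authors removed rRNA and tRNA reads with STAR, aligned footprints with Bowtie2 to coding sequences of mm10 and ran RSEM, whose versions are not given in the sources used here. Per gene, the authors deposited expected counts, which are whole numbers not scaled between libraries. The TPM values deposited by the authors were scaled within each library. NIH3T3 libraries were not used. Of the symbols, 25 had turned into dates (15 among expressed genes) and were kept.

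Genes with a mean of at least 2 TPM over the MEF libraries were compared by the fold rule (2-fold at both times, floor of 4 TPM) and by edgeR 4.0.16 in R 4.3.3 (6 groups of genotype by stage, TMM factors), with DESeq2 1.42.0 as an alternative. GC content was that of GENCODE coding sequences of GRCm38, the assembly of mm10, for 95.9% of expressed genes. The GC trend was a lowess fit (fraction 0.3, statsmodels 0.14.6 in Python 3.11.15). The fits were tested on simulated data. Counts of 0 and intervals of counts cover counting error only.

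The genes compared, the 31 gene lists and the hydrophobic N-terminus list (a mean hydropathy of at least 2.2 over 8 of the first 30 residues) were chosen with earlier results of these data known. Named genes are Eif2ak3, Atf4, Ddit3 and those the study names for these cells, the 10 largest in each direction by mean log2 TPM ratio among genes called by both rules with at least 100 counts, the 10 largest in each direction of the contrast with the controls, and in each list the 4 largest with at least 50 counts and any called by both rules. Of these, the text names a part, and some are not reported here. Coch, which marks the WT 1 h library, was named after its values were seen. Alternatives were other floors, filters, scalings, times and tools, each library left out, and the time as a block. The count of each list without 1 library or by DESeq2 was added after seeing the data.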

Additional observations from a re-analysis of the deposited data

Results flagged for a closer look

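The genotype difference in early stress was set against that of the untreated lines in 1 edgeR fit, and 367 genes differed between these settings (adjusted p under 0.05, 3.52% of genes tested). Each control is 1 library, and all values that follow are log2 differences in early stress minus those of the controls. A positive value means that PERK-null MEFs stood higher relative to WT in early stress than in the controls. The sign does not say which genotype had the higher level: Isg15 has a negative value and was higher in PERK-null MEFs in early stress.

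In the ATF4-CHOP list the values were −4.18 for Atf4, −3.59 for Ddit3, −3.55 for Ppp1r15a, −3.64 for Sesn2, −3.45 for Ddit4 and −5.17 for Atf5. Syvn1 of ER-associated degradation had −1.66. Among immediate-early genes they were −2.87 for Ier2, −2.40 for Junb and −2.48 for Id3. The core histones had −4.26 for each of Hist1h2ag, Hist1h2ap and Hist1h2ao (identical values, with the PERK-null control at 678 TPM against 70.3 in WT), −2.51 for Hist1h4a, −1.56 for Hist1h3c, −2.08 for Hist3h2a and −2.43 for Hist1h2ae. Other genes lower beyond the controls were Gm42355 (−3.14), Pkd1 (−2.77), Uqcr11 (−2.11) and Isg15 (−2.93), the last with the PERK-null control at 171 TPM against 10.9 in WT.

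Higher beyond the controls were 1810022K09Rik (2.49), Fgfr1op2 (2.22), Rala (2.16), Mpp6 (2.15), Gm32886 (2.12), Lyar (2.03), Ube2q2 (1.97), Rab10 (1.97) and Rwdd1 (1.97). The ribosomal proteins Rps20 and Rps27 had 1.54 and 1.64, Lsm12 and Snrpd1 had 1.8 and 1.59, Eif1ax had 1.41 and the cyclin Ccne2 had 1.94. Without PERK-null 2 h, 7 of these 36 genes were still called, without PERK-null 1 h 22, without WT 2 h 32 and without WT 1 h 33, and in none of these fits did a value change sign. The causes were not tested.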

How the results depend on the processing

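The fold rule called 569 genes. It called 916 with a floor of 1 TPM, 146 at 3-fold, 921 at 1 h alone and 1702 at 2 h alone, and between 386 and 702 with other filters, scalings, thinned counts or the GC trend removed. Leaving out 1 early library gave between 825 and 2190 calls of the test in place of 2730, fewest without PERK-null 2 h and most without WT 1 h. For the contrast with the controls this gave between 9 and 433 in place of 367, which was 745 with DESeq2 and 238 without a filter on TPM. A 2-fold rule on the TPM ratios, with no test, gave 935 genes, of which 20.9% were higher in PERK-null MEFs against 58.6% with edgeR, and the cause was not tested. Labels give no replicate numbers, but 1 h and 2 h can pair the libraries: with the time as a replicate block the test called 2482 genes and the contrast 322, and 93 of 94 named early calls were kept, Ppp1r15b being lost, while Hspa5, Xbp1 and Egr1 passed with it. Without WT 1 h 90 of the 94 were kept, without WT 2 h 74, without PERK-null 1 h 70 and without PERK-null 2 h 61, with no change of sign, and DESeq2 kept 89. Among list medians over 0.1 in size, the sign changed at 1 h alone for fibroblast markers (0.15), epithelial markers (0.16) and collagen chains (0.068), and with the GC trend removed for fibroblast markers (0.28) and collagen chains (0.14). Medians closer to 0 changed sign at 1 h alone for oxidative phosphorylation (from −0.044 to 0.010), sterol synthesis (from 0.073 to −0.079) and NRF2 genes (from 0.055 to −0.040), at 2 h alone for ER folding factors (from 0.0090 to −0.040) and secreted matrix proteins (from 0.022 to −0.11), and with the GC trend removed for oxidative phosphorylation (0.062) and initiation factors (from 0.076 to −0.0040). No list median changed sign with TMM or DESeq2 scaling. Depth in WT, with a median of 70 to 99 counts per gene, limits weakly expressed genes most.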
